A study of Mus musculus with 8 samples.

Results

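Dense clusters of H3K27ac peaks are stretches of the genome where many short acetylated intervals follow each other closely. In control cells 243 such clusters were found among 15821 groups of peaks, and they held 1436 of 22542 peaks (6.37%). The clusters were chosen by the positions and widths of the control peaks. Peaks narrower than 2000 bp on chromosomes 1 to 19 and X were joined wherever the gap between neighbours was at most 12500 bp, and groups of 5 or more peaks were kept. Number of peaks, span and density in control cells are therefore descriptions of what the rule selected, and no test is attached to them.

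The cells, mouse cells of C57BL/6 background, carry the label female germline stem cell. The treated arm received C28, a compound known only by this code and written 028 in the sample names, for 3 h. The other arm is labelled as control in the H3K27ac sample title, and the name of its peak list gives DMSO. H3K27ac was profiled in 1 control and 1 C28 library with antibody ab4729, so every comparison between the arms compares 2 libraries, has no replicate check and carries no p-value. RNA was measured in 3 DMSO and 3 C28 libraries. Of 5 germ cell markers checked, the 4 most specific were near absent in that RNA: Ddx4, a germ cell RNA helicase, lay between 0 and 1.91 normalized counts over the 6 libraries and Pou5f1, a pluripotency factor, was listed at 0 in each, as was Dppa3. Dazl, a germ cell RNA-binding protein, was above 0 in 1 library only, at 0.952. The fifth, Ifitm3, which many other cell types also express, lay between 80.4 and 285.1. Ptprc, the leukocyte surface protein CD45, averaged 7255 ± 816 (SD, n = 3) with DMSO, so the label is used here as a name only.

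Acetylation of this lysine in the tail of histone H3 is written by the acetyltransferases CREBBP and EP300 and marks nucleosomes beside active promoters and enhancers. Where enhancers lie close together, the mark forms a chain of short peaks, and in many cell types the longest and strongest such chains sit near genes that set the identity of the cell. The clusters described here were defined by the spacing, width and number of peaks and were not ranked by signal, so they are not the same as the super-enhancers of the literature. Positions are in mm9. Which genes lie in the clusters was not analysed here, because the gene annotation at hand was of a later build, and for the same reason no sequence is shown.

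The control list held 23519 peaks on the chromosomes used, with a median width of 932 bp and 977 peaks of 2000 bp or more. The C28 list held 21713 peaks, with a median width of 801 bp and 369 peaks of 2000 bp or more. Total covered length was 23613178 bp and 18958047 bp, a C28 to control ratio of 0.803 for length and 0.923 for peak number. The read depth of either library is not given in these lists, and the median -log10 q of a peak, the strength of evidence the authors' peak caller gave it, was 18.8 with control and 15.3 with C28. How much of any difference between the lists comes from depth was not tested.

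A typical cluster was a chain of 5 or 6 peaks over about 30 kb. Of the 243 clusters, 136 held 5 control peaks, 48 held 6, 35 held 7 and 24 held 8 or more, up to 18. Spans ran from 7197 bp to 84982 bp with a median of 30375 bp, and 16 clusters extended past 50000 bp. Acetylated intervals filled a median of 17.1% of the span (quartiles 14.2% and 20.5%), and the median covered length was 5127 bp. The gap between neighbouring peaks had a median of 5107 bp over 1193 gaps, of which 222 (18.6%) were under 1000 bp. Together the clusters spanned 7713832 bp.

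**Figure D1:**
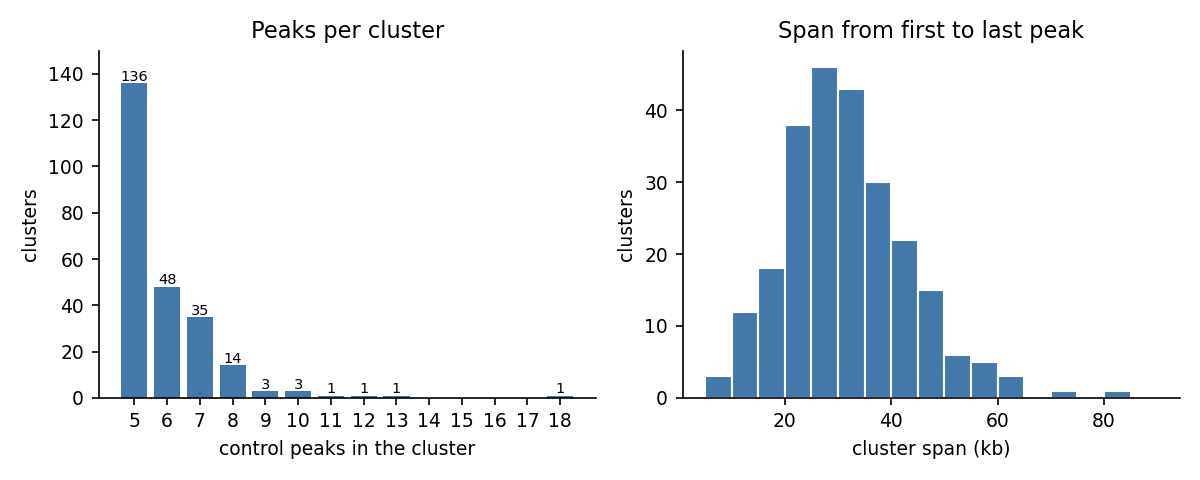
Control H3K27ac clusters by the number of peaks they hold (left, bars are counts of clusters) and by span from the first to the last peak in kb (right, bins of 5 kb). Most clusters sit at the lower end of both scales: 136 of 243 hold 5 peaks, and 16 span over 50000 bp.

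The limit of 5 peaks divides a continuous series. Just outside it, 327 groups held 4 peaks, with a median span of 20778 bp and a median covered length of 3547 bp. Just inside it, the 136 clusters of 5 peaks had a median span of 26020 bp and a median covered length of 4423 bp. The clusters of 6 and of 7 peaks continued this series, with median spans of 30782 bp and 36057 bp.

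Peaks in clusters were modest ones. Their median fold enrichment, the authors' own value for each peak against its background, was 3.92 (quartiles 2.90 and 5.60), against 6.74 for the 11558 lone peaks and 4.78 for the 9548 peaks in groups of 2 to 4. The median -log10 q was 15.2 in clusters, 21.5 for lone peaks and 15.2 in groups of 2 to 4. Median widths were 799.5, 962 and 836 bp in the same order. Within a cluster the peaks were uneven: the highest fold enrichment exceeded the lowest by a median factor of 2.43, and by 9.88 in the most uneven cluster. Wide control peaks were frequent nearby, since 31 clusters (12.8%) had a peak of 2000 bp or more in the span or within 12500 bp of it, against 2.60% of lone peaks and 5.42% of groups of 2 to 4. A longer span gives more room for such a neighbour, and this was not adjusted for.

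Clusters were unevenly spread over the chromosomes. Chromosome 11 had the most, 28 clusters with 170 of its 1772 peaks (9.59%), followed by chromosome 9 with 21 clusters and 137 of 1236 peaks (11.1%). Chromosomes 4 and 17 had 18 each and chromosome 15 had 16. Chromosome 14 had 0 clusters among 861 control peaks, although its share of lone peaks, 54.9%, was close to the 53.5% of chromosome 12, which had 10 clusters among 877 peaks. It had 11 groups of 4 peaks, and in the C28 list 4 clusters of 5 or more.

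The cluster with the most peaks lay at chr13:21841827-21926808, with 18 control peaks over 84982 bp. Its peaks were weak to moderate, with fold enrichment from 2.30 to 7.83 and -log10 q from 3.36 to 37.0. The C28 list had 10 peaks there, each on a control peak, and 8 control peaks had no counterpart. Covered length was 14629 bp with control and 6814 bp with C28, a ratio of 0.466. The 8 control peaks without a counterpart were scattered along the chain and included one of -log10 q 31.1. A second long chain on that chromosome, chr13:23642904-23685547, had 9 control peaks under 2000 bp and a wide one of 2567 bp. Of the 9, 8 were overlapped, and covered length was 11544 bp and 7303 bp (ratio 0.633). The wide interval was listed as a pair of C28 peaks of 1272 and 755 bp.

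Other large clusters differed in how much of the chain both lists shared. At chr7:87571011-87619675, 12 control peaks with fold enrichment between 1.75 and 3.79 faced 7 C28 peaks, and 6 of the 12 were overlapped (11026 and 6560 bp, ratio 0.595). At chrX:47919382-47976581 the 11 control peaks were narrow, 328 to 836 bp, and 8 were overlapped. The C28 list had 10 peaks there, 2 of them in gaps of the control chain (5381 and 4511 bp, ratio 0.838). At chr19:4096709-4170359 the C28 list had 12 peaks and the control list 10 (11824 and 10574 bp, ratio 0.894), since some single control peaks were listed as a pair of C28 peaks and 1 C28 peak lay in a gap. The other 5 clusters of 9 or more peaks had ratios between 0.768, at chr6:87445593-87500205, and 0.964, at chr6:47689937-47739333. The 14 clusters of 8 peaks had ratios between 0.522, at chrX:72974912-73005083, and 0.961, at chr6:47600793-47636361.

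A few clusters stood apart by very strong evidence. In 5 clusters the median -log10 q exceeded 100, while the next highest was 88.2. The cluster at chr9:3000203-3038269, at the first assembled bases of the chromosome, had 13 control peaks with a median -log10 q of 998.7 and a highest value of 10076, at a median fold enrichment of 4.37. At chr6:47689937-47739333 and chr6:47600793-47636361 the medians were 484 and 241. In these chromosome 6 clusters most distances between successive peak starts were similar. Of them, 6 of 9 and 6 of 7 lay between 4000 and 5000 bp, against 5.78% of such distances over all clusters. The longest were 8848 and 8601 bp. The other 2 were chr12:55810788-55840151 and chr9:20673068-20703112, with median fold enrichment of 16.9 and 8.47. Of the 42 control peaks in the 5 clusters, 41 were overlapped by a C28 peak, and the clusters' ratios of covered length lay between 0.849 and 0.964. Such overlap is usual for strong peaks: outside clusters, 4895 of 4897 control peaks of -log10 q 50 or more were overlapped. The lowest -log10 q in the 5 clusters was 25.6, so not all of the 42 reach that strength. These 5 clusters and the spacing were singled out after their values were seen. No repeat annotation of mm9 was used here, so whether these intervals lie in repeated sequence, where peak values need not reflect acetylation of a single locus, was not tested. Without the 5 clusters the figures for the other 238 were almost the same, with 71.8% of peaks overlapped and a peak number ratio of 0.761.

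Inside the clusters the C28 list had fewer and narrower peaks than the control list. The spans were chosen for many control peaks, which favours a lower C28 number beforehand, and in clusters built on the C28 list the number ratio was 1.12, with fewer C28 peaks in 19 of 170. The control-built spans held 1440 control peaks, 4 of them 2000 bp or wider, and 1104 C28 peaks, a ratio of 0.767. Covered length within the spans was 1282986 bp with control and 895060 bp with C28, a ratio of 0.698, and the mean covered length per peak was 891 and 811 bp. Fewer C28 than control peaks were listed in 177 clusters (72.8%), equal numbers in 52 and more in 14. The share with fewer was 51.9% over all groups of 2 or more peaks, but it grows with the number of peaks in a group and cannot be read as a property of clusters.

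By summed covered length and by the share under a ratio of 2/3 the clusters lay near the other groups, but the spread of single ratios differed. A C28 to control ratio under 2/3 was seen in 98 clusters (40.3%), beside 40.7% of all groups of control peaks, 38.9% of lone peaks and 45.9% of groups of 2 to 4. A ratio over 1.5 was seen in 0 clusters, beside 0.0822% of all groups. The summed ratio was 0.698 in clusters, 0.679 for lone peaks and 0.686 in groups of 2 to 4. The median ratio of single clusters was 0.715 with quartiles of 0.559 and 0.822. For lone peaks the median was 0.779 with quartiles of 0.338 and 0.917, and for all groups 0.756 with 0.429 and 0.907. No C28 peak at all was listed in 22.9% of lone peaks and 18.4% of all groups, against 1 cluster. The share under 2/3 thus depends on group size too and cannot be read as likeness of the groups. Because C28 peaks were cut at the ends of the control span, a lone peak cannot have a ratio over 1, and 10 clusters did. Counting every peak at its whole length left 92 clusters (37.9%) under 2/3.

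**Figure D2:**
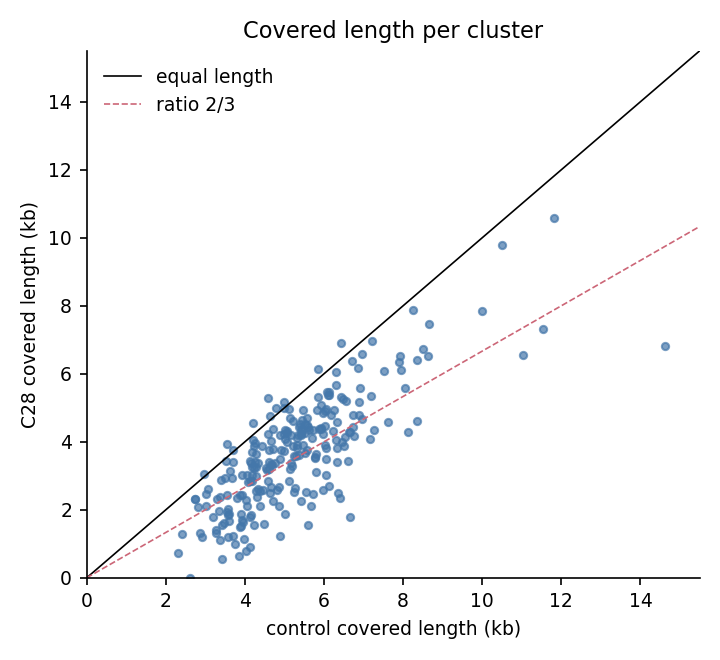
Covered length of H3K27ac peaks in each of the 243 clusters, in kb, with control on the x axis and C28 on the y axis. Each point is 1 cluster, the solid line marks equal length and the dashed line a ratio of 2/3. Most points lie below the line of equality, 98 lie below the dashed line, and the point farthest to the right is the 18-peak cluster of chromosome 13 (14629 and 6814 bp).

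The ratio was similar across cluster sizes. It was 0.684 summed over clusters of 5 peaks, 0.719 for 6, 0.690 for 7 and 0.722 for 8 or more, and 0.701 for the groups of 4 just outside the limit. The share of control peaks overlapped by a C28 peak was 72.1% in clusters of 5, 72.2% in clusters of 6 and 69.8% in clusters of 7. Among the clusters of 8 or more it varied widely, from 6 of 12 peaks in the chromosome 7 chain to all 10 at chr6:47689937-47739333.

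Individual peaks in clusters were overlapped about as often as others of equal strength. Of 1436 cluster peaks, 1042 (72.6%) were overlapped by a C28 peak by at least 1 base, with an exact Clopper-Pearson 95% interval of 70.2% to 74.9% that covers counting error only. The share was 77.1% for lone peaks (76.4% to 77.9%) and 72.3% in groups of 2 to 4 (71.4% to 73.2%). The 394 cluster peaks without a counterpart made up 27.4%, beside 25.2% of all control peaks under 2000 bp. Strength divided the peaks far more than group size. Among cluster peaks of -log10 q under 5 the share overlapped was 35.0%, from 5 to 10 it was 46.3%, from 10 to 20 it was 74.3%, from 20 to 50 it was 93.5%, and from 50 upward 225 of 226 were overlapped. Applying the shares of all peaks outside clusters to the mix of strengths inside them gave 73.0%, within the interval of the observed 72.6%. In the bin from 20 to 50 the cluster share of 93.5% (90.4% to 95.8%) lay below the 97.2% of lone peaks (96.5% to 97.7%). The groups of 2 to 4 stood between them at 94.7%.

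**Figure D3:**
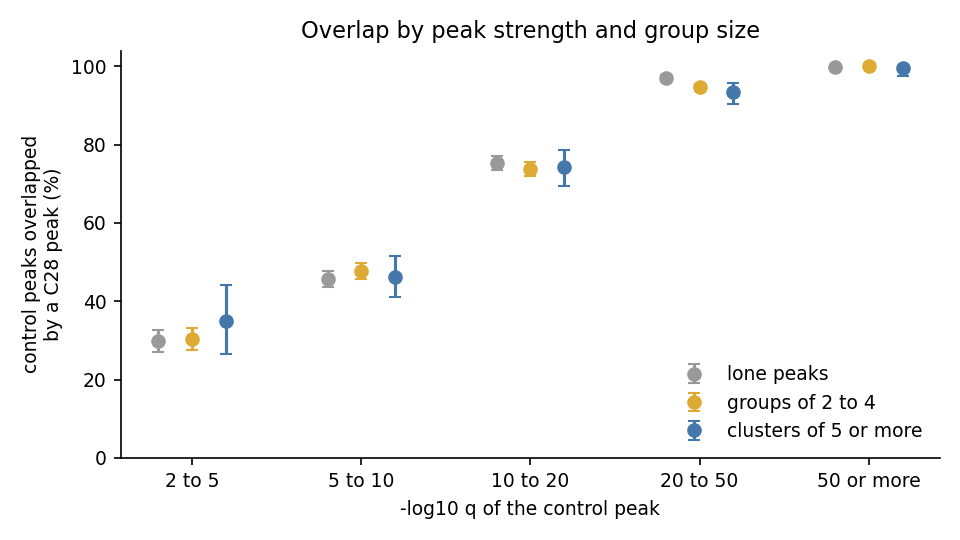
Percent of control peaks overlapped by a C28 peak (y axis) by the -log10 q of the control peak (x axis), for lone peaks, groups of 2 to 4 and clusters of 5 or more. Points are shares and bars are exact Clopper-Pearson 95% intervals, which cover counting error only. The share in clusters climbs from 35.0% in the weakest bin to 99.6% in the strongest, and the 3 kinds of group lie close together within each bin.

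The strongest peak of a chain usually had a C28 counterpart. The strongest control peak of a cluster, with a median -log10 q of 50.1, was overlapped in 229 of 243 clusters (94.2%). The weakest, with a median of 5.74, was overlapped in 111 (45.7%). Every control peak was overlapped in 52 clusters, exactly 1 was not in 74, and 2 or more were not in 117. In 38 clusters fewer than 50% were overlapped. Cluster peaks with a counterpart had a median width of 933.5 bp and a median -log10 q of 21.7, and those without had 537 bp and 7.69.

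Outermost and inner peaks of a chain had overlapping intervals. The outermost peaks were overlapped in 74.7% of cases (363 of 486, interval 70.6% to 78.5%) and the inner ones in 71.5% (679 of 950, interval 68.5% to 74.3%). Peaks whose nearest neighbour lay under 1000 bp away were overlapped in 65.9% of 419 cases (61.1% to 70.4%), against 76.2% of 509 (72.3% to 79.9%) where the nearest lay 5000 bp or more away. The closely spaced peaks were also narrower, with a median of 659 against 1003 bp, and had a lower median -log10 q, 14.0 against 16.2. Whether spacing matters apart from width and strength was not tested. Peaks without a counterpart were somewhat more often side by side: 33.1% of the neighbours of such a peak also had none, against 25.9% of the neighbours of an overlapped peak. In groups of 2 to 4 these shares were 33.0% and 26.1%, so the clusters did not stand apart. The shares were pooled over clusters or groups and not adjusted for peak strength, which differed between clusters.

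Width alone sorted the peaks in the same way. Cluster peaks under 500 bp were overlapped in 47.2% of 303 cases (41.5% to 53.0%), against 40.3% of lone peaks of that width (38.2% to 42.6%). From 500 to 1000 bp the share was 69.2% in clusters and 72.4% for lone peaks, from 1000 to 1500 bp 90.2% and 92.6%, and from 1500 bp to the width limit 93.8% and 97.3%. In the narrowest class the cluster peaks also had the higher median -log10 q, 7.33 against 6.43, and in the other 3 classes the lower one.

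Few C28 peaks opened new positions inside the clusters. Of the 1104 C28 peaks, 52 (4.71%) overlapped no control peak, beside 16.4% of all C28 peaks. The clusters were chosen where control peaks are dense, which by itself favours a low share. The 52 lay in 48 clusters and were weaker, with a median -log10 q of 7.29 against 15.6 for the rest. Of the C28 covered length in the spans 88.1% lay on control peaks and 106582 bp lay in the gaps between them. In turn, C28 peaks covered 61.5% of the control length.

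Where a control peak and a C28 peak matched one to one, the C28 peak was usually the narrower. In clusters 962 such pairs had median widths of 929.5 and 794 bp, and 675 of them (70.2%) were narrower with C28. The share was 72.4% for lone peaks, 71.4% in groups of 2 to 4 and 71.9% over all pairs. The median C28 to control width ratio was 0.889 in clusters, 0.896 for lone peaks and 0.884 in groups of 2 to 4. Summits stayed close, at a median distance of 69 bp in clusters and 62 bp for lone peaks. A further 30 of the 1436 control peaks in clusters were each overlapped by 2 or more C28 peaks, beside 334 of all 22542 control peaks under 2000 bp.

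The clusters at the ends of the ratio were mostly small. At chr4:100827800-100865990 none of the 5 control peaks had a counterpart and the C28 list had 0 peaks, the only cluster without one. Its control peaks were weak, with a median -log10 q of 8.78, fold enrichment from 3.54 to 5.38 and widths from 330 to 869 bp. At chr13:4190526-4201680 only 1 of 5 was overlapped, and covered length was 3426 and 559 bp (ratio 0.163), although the strongest control peak without a counterpart had a -log10 q of 28.4. At chr6:54093136-54113151 the covered length was 3858 and 643 bp (0.167), and at chr2:11538767-11585703, with 7 control peaks, 4022 and 790 bp (0.196). The cluster at chr17:32245043-32271429 had comparatively strong control peaks, up to a -log10 q of 38.8 and a fold enrichment of 6.37, of which 1 of 5 was overlapped (4141 and 894 bp, 0.216). At chr17:18854412-18864695, the most densely covered cluster with 47.4% of its span filled, 3 of 5 were overlapped by short C28 peaks (4877 and 1241 bp, 0.254).

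At the other end 10 clusters had a longer covered length with C28. The highest ratio was 1.15, at chr5:125869650-125889826, where all 5 control peaks were overlapped by 5 C28 peaks (4594 and 5280 bp). At chr15:83284776-83325042 the ratio was 1.11 with 4 of 5 overlapped (3548 and 3942 bp). At chr17:71069618-71104312 the C28 list had 7 peaks and the control list 5 (4207 and 4562 bp, 1.08). The clusters at chr11:119638345-119679646, chr10:127936202-127973972 and chr11:77978514-78002744 followed with 1.07, 1.05 and 1.04. None of these reached the ratio of 1.5, and 27 clusters lay between 0.9 and 1.1.

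**Figure D4:**
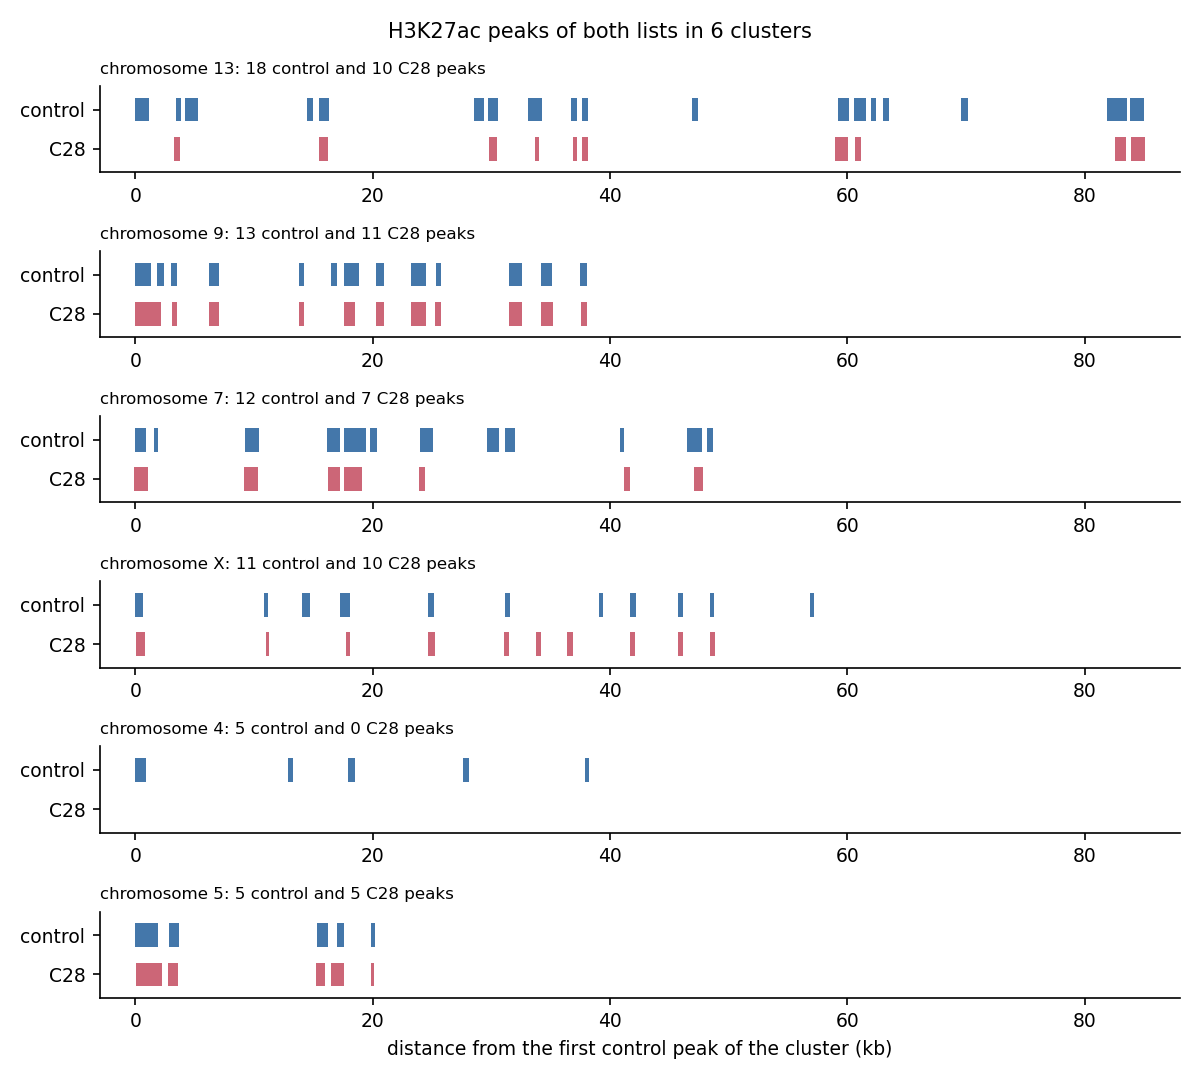
Peaks of the control list (upper row) and the C28 list (lower row) in 6 clusters, drawn to 1 scale as distance in kb from the first control peak. The upper 4 panels are the clusters with the most control peaks and the lower 2 have the lowest and the highest ratio of covered length. The chromosome 9 chain is nearly the same in both lists (12 of 13 overlapped), the chromosome 13 chain keeps 10 of 18, and the chromosome 4 chain has 0 C28 peaks.

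The list that built the clusters shaped these ratios. The same rule applied to the C28 list gave 170 clusters, of which 105 (61.8%) overlapped a control cluster, and 105 of the 243 control clusters (43.2%) overlapped a C28 cluster. Inside the C28 clusters were 1015 C28 and 904 control peaks, a C28 to control ratio of 1.12 for number, which is the opposite direction to the 0.767 of the control clusters. Covered length there was 797980 and 897932 bp, a ratio of 0.889, and 12 of 170 (7.06%) were under 2/3. Building clusters on both lists together, with overlapping intervals merged, gave 327 clusters with 1506 C28 and 1759 control peaks (ratio 0.856) and a length ratio of 0.747. Over all groups built in this way the ratios were 0.914 for number and 0.803 for length. By group size the length ratio was 0.829 for groups of 1, 0.782 for 2 to 4 and 0.747 for 5 or more. In the control-built groups the same series ran the other way, at 0.679, 0.686 and 0.698, so its direction depended on the list that built the groups. Neither series was adjusted for peak strength. A length ratio under 2/3 was found in 33.0% of these clusters and in 31.5% of all groups built on both lists. A ratio over 1.5, which includes groups with C28 peaks only, was found in 0.306% and 14.4%, and in 16.8% of groups of 1. The similar lower shares therefore do not make the clusters and the other groups alike. Control covered length thus exceeded C28 covered length whichever list built the clusters, while the excess in peak number was absent in the C28 build. The width limit, however, applied only to the list that built the clusters. Control peaks of any width were counted in the C28 build, where mean covered length per control peak was 993 bp, against 891 bp in the control build. How much of the length excess comes from this limit was not tested.

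**Figure D5:**
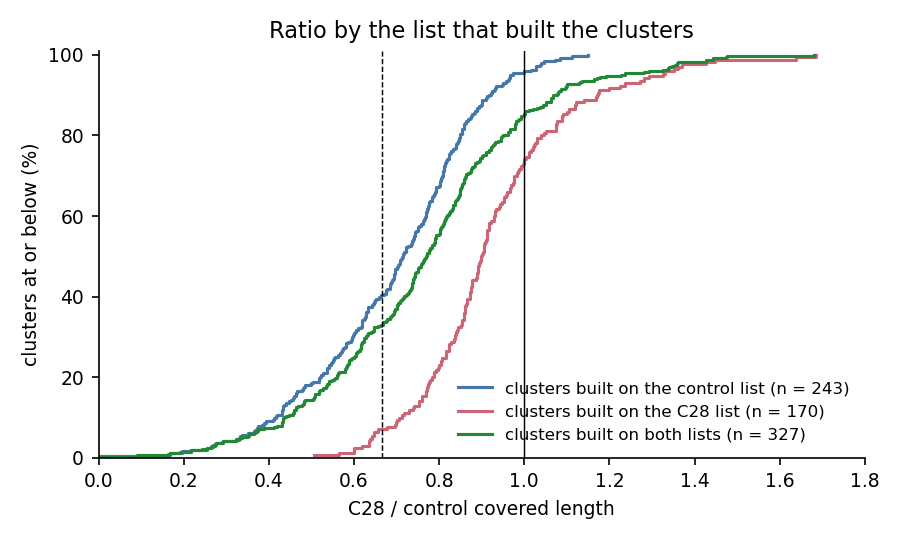
Cumulative percent of clusters (y axis) at or below each C28 to control ratio of covered length (x axis), for clusters built on the control list (n = 243), on the C28 list (n = 170) and on both lists together (n = 327). The solid vertical line marks equal length and the dashed line 2/3. The control-built curve reaches 40.3% at the dashed line, the curve for both lists 33.0% and the C28-built curve 7.06%.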

How the data were processed

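H3K27ac peak lists of 1 control and 1 C28 library, and a gene expression table of 6 RNA libraries, were taken as deposited. Peak rows with the same chromosome, start and end were counted as 1 peak, with the values of the first such row. The submitters' processing notes name build mm9, Bowtie2 and Cufflinks 2.2.1 without saying what each tool did. The name of the peak caller is not given in the sources used here. Each deposited list gives, per peak, a score, a fold enrichment and -log10 p and q values by the authors. The score restates the q value and was not used further. Fold and q values describe or filter peaks within a list. Lists were called per library, so covered length depends on how much was called in each, and read depth is unknown. The deposited expression values, on a signal scale, are read counts per gene divided by a size factor per library, as judged from the values, and served only for marker levels.

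Groups came from the sample titles. Peaks were joined, counted and intersected in Python 3.11.15 with numpy 2.4.6 and pandas 2.3.3, and intervals came from scipy 1.17.1. The code was tested on simulated data. Peak number and covered length were taken between the first start and last end of each cluster. Covered length ratios under 2/3 and over 1.5 were counted. Clusters named come from the 12 with the most control peaks (the last 2 places are tied among 14 clusters of 8 peaks and were filled by chromosome name and position, so the text gives the range of all 14) and the 6 with the lowest and 6 with the highest ratio, besides those singled out as very strong. Alternatives changed the gap, the peak minimum, width and q limits, the overlap and the list that builds clusters. The planned tests of genes in clusters were not run, since no gene positions in mm9 were at hand. The members and lists were chosen with earlier results of these data known.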

Additional observations from a re-analysis of the deposited data

How the results depend on the processing

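With a joining gap of 5000 bp there were 24 clusters in place of 243, 65.4% of their control peaks were overlapped, the C28 to control peak number ratio was 0.692 and 54.2% of clusters had a covered length ratio under 2/3. The 95% intervals of these 24 clusters were wide, at 56.5% to 73.5%, 0.523 to 0.913 and 32.8% to 74.45%. Each covers the value of the main setting. The intervals in this section count peaks or clusters as independent draws and cover counting error only. Those of the number ratio also treat C28 and control peaks as separate draws, although many share a position. With 1 library per group, none measures variation between cultures. A gap of 25000 bp gave 786 clusters, at least 3 peaks gave 1424, and at least 8 peaks gave 24, with 77.6% of peaks overlapped and a number ratio of 0.830. Requiring 50% of the control peak to be covered gave 63.5% of cluster peaks, and this share was not computed for peaks outside clusters. With clusters built on the C28 list, 87.0% of C28 peaks in them were overlapped by a control peak, the number ratio turned to 1.12 and 7.06% were under 2/3. With both lists together, an alternative chosen after seeing the data, these were 0.856 and 33.0%. The other alternatives, including control peaks of any width, a -log10 q of at least 5 in both lists and, chosen after seeing the data, whole peak lengths and leaving out the 5 very strong clusters, left each value within its 95% interval or its count within 1.5 times. Unknown read depth limits each comparison between the lists. No paired analysis was possible because each H3K27ac group has 1 library and no test was run on the RNA libraries.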
